A study of Mus musculus with 18 samples.

Results

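Slc1a2, Slc1a3 and Slc1a1 encode plasma membrane transporters that carry glutamate into cells, and they were followed through 18 RNA-seq libraries of astrocytes from the mouse primary motor cortex (M1). They were taken by gene symbol from the deposited expression table and are 3 of its 23924 genes. The series asks how learning a movement affects the RNA of M1 astrocytes. The mice were wild-type C57BL/6 animals, and those trained were kept short of water and earned drops of it by pushing a lever on cue; whether the naive mice were also water restricted is not clear from the labels. The naive group (6 libraries, mice of 12 to 21 weeks) had no training, the novice group (6 libraries, 11 to 13 weeks) had 3 days of it, and the expert group (6 libraries, 13 to 15 weeks) was fully trained. Each group held 2 libraries labelled female and 4 labelled male. Whether every library of a group came from a different animal is not said in the labels, though ages and sexes differ within each group. The p-values here set group differences against the spread between libraries, part of which may be technical. How the astrocytes were isolated is not said in the labels either, and the length of training of the experts is not given in days.

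Glutamate released at synapses is cleared mainly by uptake into the astrocytes that surround them. Slc1a2 (GLT1) is the principal transporter of forebrain astrocytes, Slc1a3 (GLAST) is its partner in astrocytes and is especially abundant in radial glia and the cerebellum, and Slc1a1 (EAAC1) is carried mostly by neurons. The uptake draws on the sodium gradient kept by the Na,K-ATPase and returns potassium, and inside the astrocyte glutamine synthetase (Glul) converts the glutamate to glutamine.

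In mouse build GRCm38.p6, the GENCODE gene spans are chr2:102658659-102790784 (plus strand) for Slc1a2, chr15:8634124-8710764 (minus strand) for Slc1a3 and chr19:28835049-28913960 (plus strand) for Slc1a1. The sequence of 164 bases that ends 87 bases before each RefSeq start is printed below as a description. Its part in the levels was not tested. Capitals mark the letters of searched promoter motifs where they occurred on either strand. They are GGGCGG of the GC box, TATAAA of the TATA box and CCAAT of the CCAAT box.
Slc1a2, chr2:102706188-102706351, plus strand: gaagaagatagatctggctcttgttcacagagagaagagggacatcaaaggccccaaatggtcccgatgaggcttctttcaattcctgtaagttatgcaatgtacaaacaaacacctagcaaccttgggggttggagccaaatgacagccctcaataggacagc
Slc1a3, chr15:8710894-8711057, minus strand: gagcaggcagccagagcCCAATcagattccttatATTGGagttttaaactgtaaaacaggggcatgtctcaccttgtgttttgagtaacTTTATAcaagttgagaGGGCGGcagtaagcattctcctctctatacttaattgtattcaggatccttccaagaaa
Slc1a1, chr19:28834885-28835048, plus strand: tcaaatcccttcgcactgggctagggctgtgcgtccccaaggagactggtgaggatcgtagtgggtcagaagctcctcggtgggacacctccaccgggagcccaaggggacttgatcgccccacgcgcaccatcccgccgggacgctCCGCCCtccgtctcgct
The Slc1a1 window had 66.5% G and C and 14 CpG dinucleotides, the Slc1a3 window 41.5% and 1, and the Slc1a2 window 47.0% and 1, beside a median of 51.2% and 3 over 32841 RefSeq promoters of the same length. The Slc1a3 window held the letters of 2 CCAAT boxes, 1 TATA box and 1 GC box, and the Slc1a1 window those of 1 GC box. These letters did not occur in the Slc1a2 window. Such a match does not show a working motif, and a TATA box within 87 bases of the start would lie outside the windows. Of the same windows of 32841 promoters, 22.1% held the letters of a CCAAT box, 7.83% of a TATA box and 18.6% of a GC box. CACGTG, found in 3.26% of them, and GTGGGAA, found in 3.63%, did not occur in any of the 3 windows. The RefSeq start used for Slc1a2 lies 47.8 kb inside the GENCODE gene, so its window belongs to an internal start.

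The coding sequences of the 3 genes are related. Aligned coding bases were identical at 62.6% between Slc1a2 and Slc1a3, 61.6% between Slc1a2 and Slc1a1, and 65.2% between Slc1a3 and Slc1a1. The longest exact runs they share are printed here, because a read that reaches past such a run meets a base that differs.
Slc1a2 and Slc1a3: ACCATTAACATGGATGG
Slc1a2 and Slc1a1: ATGAGGATGCTGAAG
Slc1a3 and Slc1a1: TGATCAGGAACATGTTCCCT
These runs are 17, 15 and 20 bases long.

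The values were taken to be FPKM, fragments counted per kilobase of transcript and relative to the mapped fragments of the library. On that assumption levels of different genes can be set beside each other per length. Whether the libraries were scaled further is not stated. The files give no read totals, and the depth behind a value is therefore unknown here. The libraries also differed in how much signal lay over genes that brain cells rarely express, called silent genes here. The trimmed mean over 1452 autosomal olfactory, vomeronasal and taste receptor genes was 0.0647 to 1.51 FPKM in 10 libraries and 2.22 to 3.23 FPKM in the other 8. The 10 libraries of lower silent-gene signal were naive 1 to 4, novice 1 and 2, and expert 1, 2, 3 and 6, so that 4 novice libraries but 2 of each other group were in the higher class. Expert 3 stood apart at 0.0647 FPKM. The RNA Bc1 made up 18.4 to 59.6% of the summed FPKM in the 10 libraries of lower signal and 6.01 to 19.2% in the other 8. Scaling to the summed FPKM without Bc1 was among the alternatives tried, and no transporter passed the test under it. The sex-linked transcripts of 2 novice libraries went against their labelled sex. Astrocyte markers were found in every library, at unlike levels. The summed level of 20 astrocyte identity genes outside glutamate transport, none of them listed at 0, was 3445 to 12870 FPKM in naive libraries, 3529 to 7861 FPKM in novice libraries and 3990 to 14920 FPKM in expert libraries. In novice libraries its largest part, Apoe, averaged 2869 FPKM, while Aldh1l1 averaged 28.1 FPKM and Gfap 10.6 FPKM. Among neuron markers Camk2a averaged 285 FPKM and Gad1 5.29 FPKM in the same libraries. The sum of 14 neuron markers was 182 to 1068 FPKM in naive libraries, 205 to 1487 FPKM in novice libraries and 230 to 1413 FPKM in expert libraries, and 4 markers of other cells, C1qb and Tmem119 of microglia and Mag and Opalin of oligodendrocytes, were listed at 0 in at least 1 library.

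Slc1a2 was among the most abundant transcripts of every library, between rank 21 and rank 165 of the 23924 genes. Its lowest, median and highest levels were 548, 1503 and 2341 FPKM in naive libraries, 518, 677 and 1530 in novice libraries, and 759, 1457 and 2708 in expert libraries. The 3 groups overlapped, and the expert minimum lay above 4 of the 6 novice values. The level differed 5.23-fold between the lowest and the highest of the 18 libraries.

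Slc1a3 stood between rank 55 and rank 270. Its lowest, median and highest levels were 216, 485 and 794 FPKM in naive libraries, 207, 228 and 543 in novice libraries, and 288, 473 and 995 in expert libraries. The groups overlapped in the same way, with 4 novice libraries under the expert minimum.

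Slc1a1 was a low transcript, between rank 4907 and rank 16964. Its lowest, median and highest levels were 2.55, 6.03 and 7.81 FPKM in naive libraries, 4.29, 6.44 and 9.82 in novice libraries, and 4.83, 7.91 and 10.6 in expert libraries. Naive 6 was the lowest library and expert 6 the highest, and the groups overlapped over most of their range. The silent-gene means of the higher class, at 2.22 to 3.23 FPKM, come near the Slc1a1 levels and lie far below those of Slc1a2 and Slc1a3. In naive 6 the silent-gene mean, at 3.14 FPKM, was above the Slc1a1 level of 2.55 FPKM. Whether such signal is part of a transporter value was not tested.

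**Figure D1:**
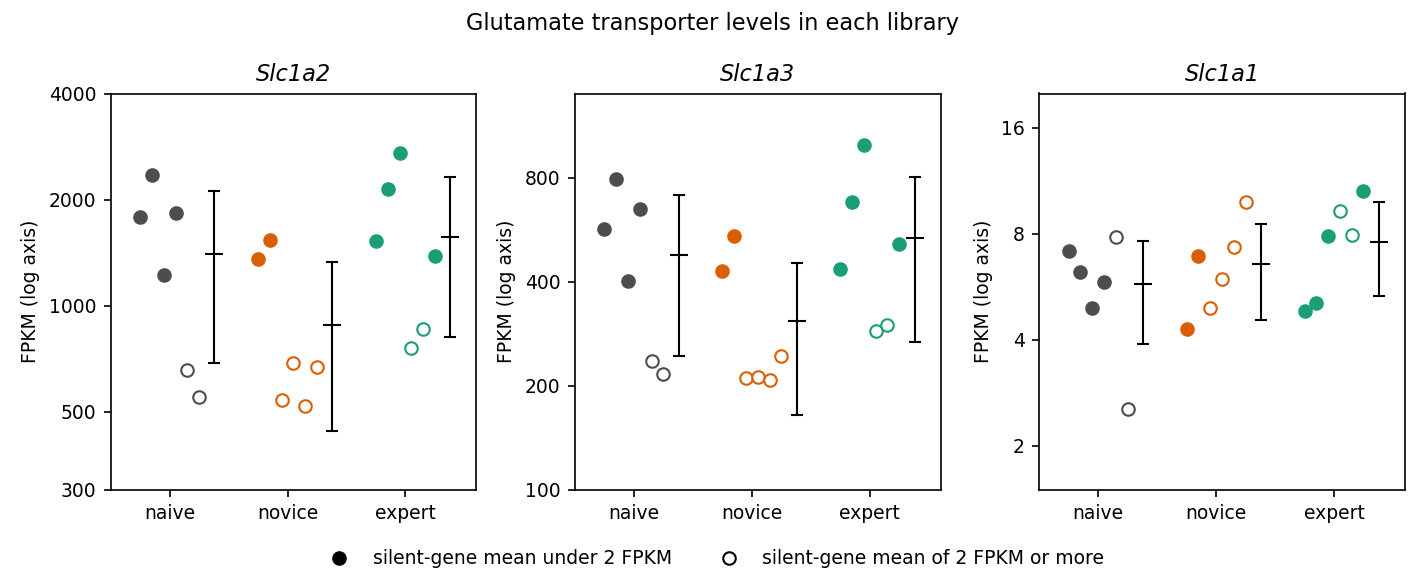
Level of Slc1a2, Slc1a3 and Slc1a1 in FPKM (log axes) in each of the 18 libraries, by group, with the mean and SD of the 6 libraries at the right of each group. Filled points are libraries with a silent-gene mean under 2 FPKM and open points those with 2 FPKM or more; the open points of Slc1a2 lie at 518 to 860 FPKM and the filled ones at 1222 to 2708 FPKM, while those of Slc1a1 are mixed.

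The order of the group means was expert, naive, novice for both astrocyte transporters and expert, novice, naive for Slc1a1. In none of these orders did neighbouring groups differ beyond their spread. In the moderated F test of limma over 21745 genes, which asks for any difference among the 3 groups, the adjusted p was 0.75 for Slc1a2, 0.75 for Slc1a3 and 0.78 for Slc1a1. No gene passed that test at an adjusted p of 0.05, and 1203 genes had an unadjusted p under 0.05.

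After 3 days of training both astrocyte transporters had lower means than in untrained mice, and neither difference passed the test. Slc1a2 averaged 883 ± 442 FPKM in novice and 1397 ± 712 FPKM in naive libraries (SD, n = 6 each), a log2 fold change of -0.61 with a standard error of 0.50 (95% interval -1.66 to 0.44, limma adjusted p = 0.89). Slc1a3 averaged 308 ± 144 FPKM in novice and 477 ± 233 FPKM in naive libraries, a log2 fold change of -0.58 with a standard error of 0.42 (interval -1.46 to 0.30, limma adjusted p = 0.89). Slc1a1 averaged 6.54 ± 1.98 FPKM in novice and 5.75 ± 1.86 FPKM in naive libraries, a log2 fold change of 0.18 with a standard error of 0.25 (interval -0.34 to 0.70, limma adjusted p = 0.90). Exact permutation tests gave two-sided p-values of 0.18, 0.16 and 0.51 for Slc1a2, Slc1a3 and Slc1a1. In this comparison 0% of the 21745 genes passed an adjusted p of 0.05 and 4.6% had an unadjusted p under 0.05, and the 3 transporters were not among those. Without naive 6, the library with the lowest Slc1a1 level, the log2 fold change of Slc1a1 was 0.0036.

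Full training was set against no training next, and the means of the 3 transporters were higher in experts by less than their spread. Slc1a2 averaged 1565 ± 752 FPKM in expert and 1397 ± 712 FPKM in naive libraries, a log2 fold change of 0.21 with a standard error of 0.50 (interval -0.84 to 1.26, limma adjusted p = 0.9996). Slc1a3 averaged 535 ± 268 FPKM in expert and 477 ± 233 FPKM in naive libraries, a log2 fold change of 0.19 with a standard error of 0.42 (interval -0.69 to 1.07, limma adjusted p = 0.9996). Slc1a1 averaged 7.59 ± 2.27 FPKM in expert and 5.75 ± 1.86 FPKM in naive libraries, and its log2 fold change of 0.36 had a standard error of 0.25 (interval -0.16 to 0.88, limma adjusted p = 0.9996). The exact permutation p-values, two-sided, were 0.65, 0.66 and 0.19. Of all genes tested, 0% passed an adjusted p of 0.05 here and 2.86% had an unadjusted p under 0.05. The direction for the astrocyte transporters hung on single libraries. Without naive 6 the log2 fold change was -0.022 for Slc1a2 and -0.0092 for Slc1a3, and without expert 3 it was 0.022 for Slc1a2 and -0.020 for Slc1a3. That of Slc1a1 was 0.19 without naive 6. Of all genes tested, 43.9% had a log2 fold change above 0 in expert over naive. Endothelial markers were above 0 in 10 of 10, 7 of them at an unadjusted p under 0.05, with a median of 0.61 and summed levels of 239 to 672 FPKM in expert and 218 to 322 FPKM in naive libraries. Oligodendrocyte precursor markers were above 0 in 6 of 6 (median 0.43, 2 at an unadjusted p under 0.05), as were pericyte and smooth muscle markers (6 of 6, median 0.42, 2 at an unadjusted p under 0.05). Of the other lists, 4 of 10 microglia, 2 of 9 oligodendrocyte and 1 of 14 neuron markers were above 0, with medians of -0.08, -0.20 and -0.20. Their part in the transporter values was not tested.

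Between full and early training the astrocyte transporters differed most in their means. The log2 fold change of Slc1a2 in expert over novice libraries was 0.82 with a standard error of 0.50 (interval -0.23 to 1.87, limma adjusted p = 0.46), from 1565 ± 752 FPKM in experts and 883 ± 442 FPKM in novices. That of Slc1a3 was 0.77 with a standard error of 0.42 (interval -0.11 to 1.65, limma adjusted p = 0.45), from 535 ± 268 FPKM in experts and 308 ± 144 FPKM in novices. That of Slc1a1 was 0.18 with a standard error of 0.25 (interval -0.33 to 0.70, limma adjusted p = 0.71), and 0.089 without novice 1 as well as without expert 6. The exact permutation p-values, two-sided, were 0.069 for Slc1a2, 0.071 for Slc1a3 and 0.42 for Slc1a1. Here 0% of genes passed an adjusted p of 0.05, and 10.9% had an unadjusted p under 0.05. Without expert 3 the log2 fold changes were 0.63 for Slc1a2 and 0.56 for Slc1a3. These differences have to be read beside those of abundant genes as a class: among the 2183 genes with a mean of 20 FPKM or more the median log2 fold change was -0.20 in novice over naive, -0.0012 in expert over naive and 0.24 in expert over novice. Over all genes tested it was 0.07, -0.05 and -0.14. The novice libraries take part in 2 of the 3 comparisons, as do the naive and the expert ones, so the comparisons are not independent. In bulk RNA fewer astrocytes and less transporter RNA per astrocyte cannot be told apart.

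**Figure D2:**
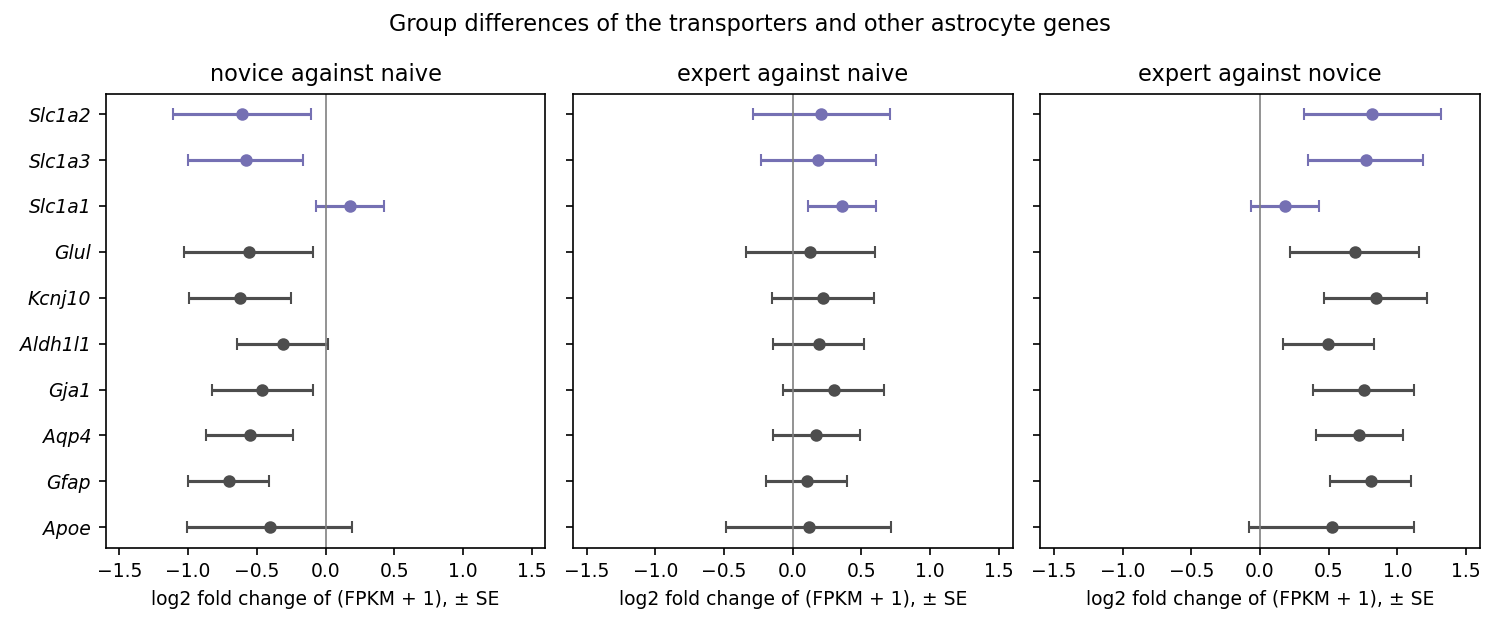
Log2 fold change of FPKM + 1 with its standard error for the 3 transporters (purple) and 7 other astrocyte genes (grey) in the 3 comparisons of groups. Slc1a2 and Slc1a3 lie at -0.61 and -0.58, 0.21 and 0.19, and 0.82 and 0.77, and Slc1a1 lies at 0.18, 0.36 and 0.18. Kcnj10 lies at -0.62, 0.22 and 0.84 and Glul at -0.56, 0.13 and 0.69.

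Slc1a2 and Slc1a3 did not overlap between the classes of silent-gene signal, although they overlapped between the training groups. In the 8 libraries of higher signal Slc1a2 stood at 518 to 860 FPKM, against 1222 to 2708 FPKM in the 10 of lower signal. Slc1a3 stood at 207 to 300 FPKM in the libraries of higher signal, against 401 to 995 FPKM in those of lower signal. Slc1a1 overlapped, at 2.55 to 9.82 FPKM with higher signal against 4.29 to 10.6 FPKM with lower signal. The panel of 20 astrocyte genes followed the same division, with sums of 3445 to 4644 FPKM in the higher class and 6063 to 14920 FPKM in the lower one. The summed level of the 14 neuron markers was 182 to 400 FPKM in the higher class and 410 to 1487 FPKM in the lower one, and Camk2a, a kinase of excitatory neurons, made up 36.2 to 153 FPKM in the higher class and 139 to 703 FPKM in the lower one. Their mean log2 level, in which each marker counts alike, overlapped, at 3.44 to 4.23 in the higher class and 3.92 to 5.47 in the lower one. Gad2, an enzyme of GABA synthesis, went the other way, with 10.7 ± 1.62 FPKM in the higher class and 6.99 ± 2.14 FPKM in the lower one (SD, n = 8 and 10). What sets the silent-gene signal was not tested.

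**Figure D3:**
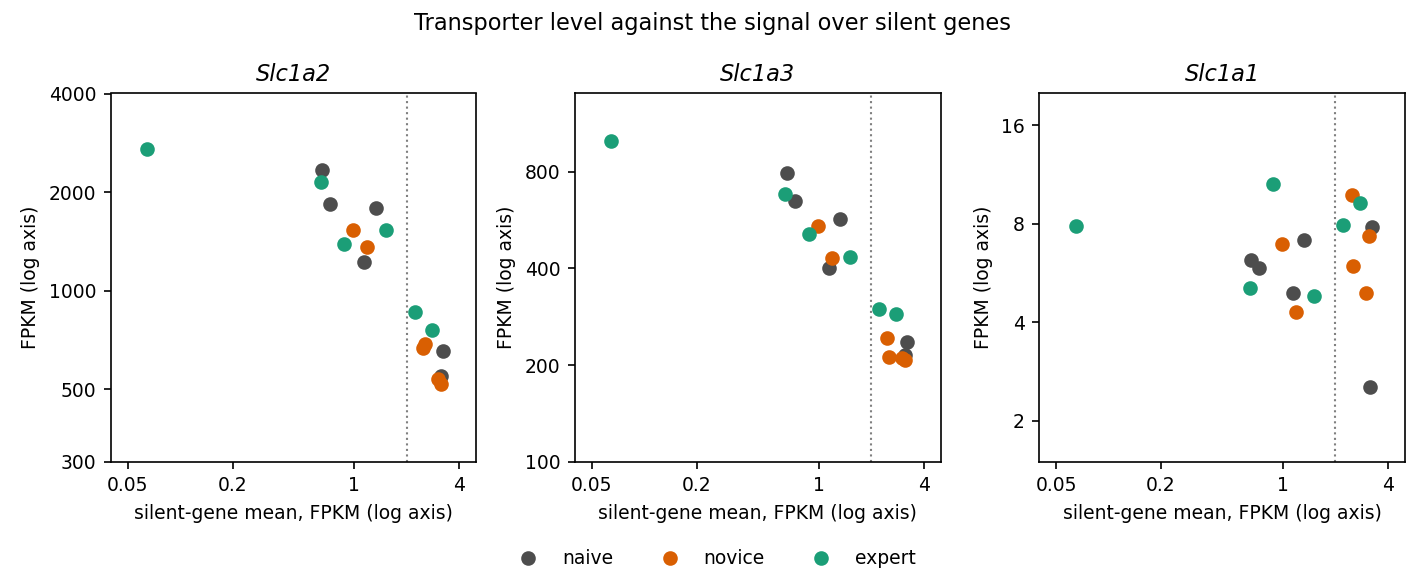
Level of each transporter in FPKM against the trimmed mean of 1452 silent genes in FPKM (both axes log), 1 point per library and 1 colour per group, with a dotted line at 2 FPKM. Slc1a2 and Slc1a3 are lower in libraries of higher silent-gene signal, whatever the group, and Slc1a1 shows no such arrangement.

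Within the classes the group differences were of other sizes. In the lower class Slc1a2 stood at 1355 and 1530 FPKM in 2 novice libraries, against 1222, 1783, 1833 and 2341 FPKM in 4 naive ones, a log2 fold change of -0.28. The 4 expert libraries of this class stood at 1385, 1530, 2147 and 2708 FPKM, and their log2 fold change was 0.10 over naive and 0.38 over novice. In the higher class Slc1a2 stood at 518, 539, 668 and 686 FPKM in 4 novice libraries, against 548 and 655 FPKM in 2 naive ones, a log2 fold change of -0.0030. The 2 expert libraries, at 759 and 860 FPKM, were above the other 6 of that class, by 0.43 on the log2 scale over naive and 0.43 over novice. Slc1a3 gave a like picture, with 288 and 300 FPKM in the 2 expert libraries of the higher class, against 207 to 243 FPKM in 4 novice ones and 216 and 235 FPKM in 2 naive ones. The silent-gene means of those expert libraries were 2.78 and 2.22 FPKM, against 2.48 to 3.12 FPKM in the novice and 3.14 and 3.23 FPKM in the naive libraries of the class. Within-class limma adjusted p-values were 0.77 or more for Slc1a2 and Slc1a3. With the log2 silent-gene mean as a covariate across all 18 libraries, the log2 fold changes of Slc1a2 were -0.36 for novice over naive, -0.14 for expert over naive and 0.22 for expert over novice, and those of Slc1a3 were -0.34, -0.15 and 0.19. For Slc1a1 the novice over naive value was -0.11 in the lower class and 0.48 in the higher one. In the higher class it hung on naive 6, at 2.55 FPKM. Naive 5 stood at 7.81 FPKM, inside the range of 4.92 to 9.82 FPKM of the 4 novice libraries.

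Slc1a2 and Slc1a3 kept a nearly fixed proportion in every library. The Slc1a2 to Slc1a3 ratio was 2.54 to 3.13 in naive libraries, 2.50 to 3.24 in novice libraries and 2.63 to 3.53 in expert libraries, so per length Slc1a2 was more abundant throughout. Its mean was 2.83 ± 0.302 in novice and 2.88 ± 0.211 in naive libraries, and 2.93 ± 0.344 in expert ones (SD, n = 6 each). The log2 ratio differed by -0.028 in novice over naive (exact permutation p = 0.71), 0.023 in expert over naive (exact p = 0.79) and 0.050 in expert over novice (exact p = 0.59). The ratio thus varied 1.41-fold over the 18 libraries in which Slc1a2 varied 5.23-fold. All p-values for ratios are two-sided, 12 libraries allow none under 0.0022, and in the 21 comparisons of ratios the smallest adjusted p was 0.87.

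**Figure D4:**
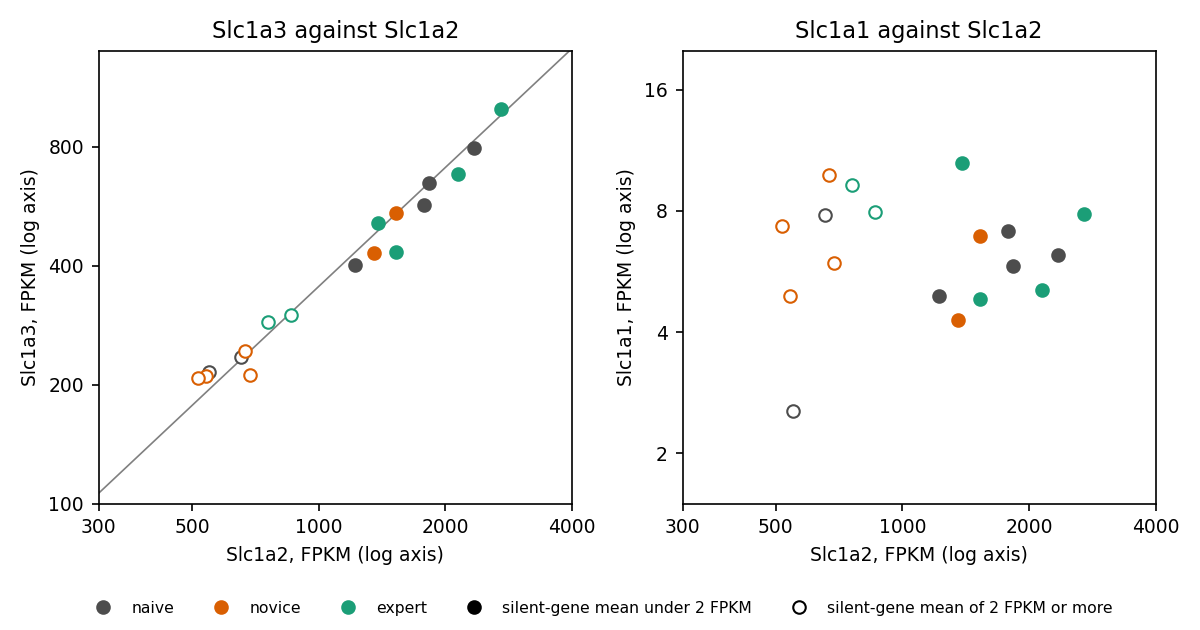
Slc1a3 (left) and Slc1a1 (right) against Slc1a2, in FPKM on log axes, 1 point per library, with filled points for a silent-gene mean under 2 FPKM and open points for 2 FPKM or more. The grey line marks the median Slc1a2 to Slc1a3 ratio of 2.82; the points of Slc1a3 follow it over the whole range and those of Slc1a1 are scattered.

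The proportion to Aldh1l1, a folate enzyme widely used to mark astrocytes, varied more. The Slc1a2 to Aldh1l1 ratio was 30.4 ± 10.7 in novice and 36.6 ± 9.62 in naive libraries, and 36.4 ± 7.02 in expert ones, over a range of 21.7 to 49.7. Its log2 difference was -0.30 for novice over naive (exact p = 0.25), 0.022 for expert over naive (exact p = 0.91) and 0.32 for expert over novice (exact p = 0.18). The Slc1a3 to Aldh1l1 ratio was 10.7 ± 3.50 in novice and 12.8 ± 3.50 in naive libraries, and 12.4 ± 1.71 in expert ones. Its log2 difference was -0.27 for novice over naive, -0.0011 for expert over naive and 0.27 for expert over novice, with exact permutation p-values of 0.29, 0.99 and 0.21. In the lower class alone the novice over naive difference had the opposite sign, 0.26 for Slc1a2 and 0.27 for Slc1a3, and in the higher class it was -0.51 and -0.55. In that class the exact permutation p for Slc1a2 to Aldh1l1 was 0.067 in novice over naive, the smallest that 4 against 2 libraries allow, and 0.70 when adjusted over the 21 comparisons.

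**Figure D5:**
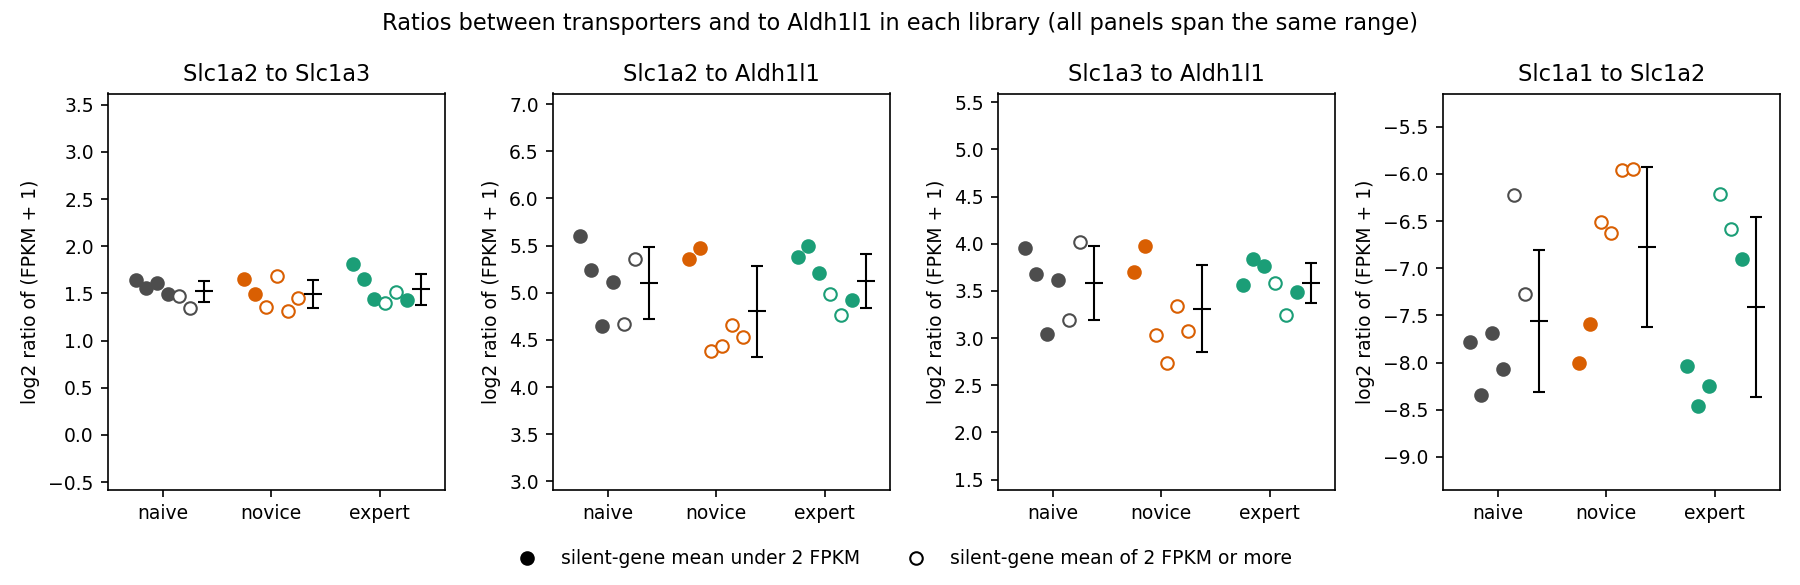
Log2 ratios of FPKM + 1 between transporters and to Aldh1l1 in each library, by group, with the mean and SD at the right of each group, on axes that span the same range. The Slc1a2 to Slc1a3 points form a narrow band, those to Aldh1l1 a wider one, and those of Slc1a1 to Slc1a2 the widest, with most open points above the filled ones.

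Against the mean of the 20 astrocyte genes the transporters kept their level more closely. The log2 ratio of Slc1a2 to this panel was 3.37 ± 0.264 in novice and 3.48 ± 0.210 in naive libraries, and 3.50 ± 0.242 in expert ones. That of Slc1a3 was 1.88 ± 0.205 in novice and 1.96 ± 0.131 in naive libraries, and 1.96 ± 0.128 in expert ones. The differences between groups ran from -0.11 to 0.13 on the log2 scale for Slc1a2 and from -0.09 to 0.08 for Slc1a3. The Slc1a2 to Glul ratio was 1.53 ± 0.0886 in novice and 1.58 ± 0.0783 in naive libraries, and 1.67 ± 0.0941 in expert ones (SD, n = 6 each). Its spread within a group was small, and the expert mean exceeded the novice mean by more than the SD of either group. On the log2 scale the ratio differed by -0.05 in novice over naive, 0.08 in expert over naive and 0.13 in expert over novice, with two-sided exact permutation p-values of 0.33, 0.0996 and 0.013. These tests were added after the values were seen, and adjusted over the 24 ratio tests the p-values were 0.78, 0.77 and 0.31. That adjustment does not cover the choice of Glul among the astrocyte genes used for ratios. The groups overlapped in each comparison, and with quantile normalization the expert over novice difference was -0.00099. To Apoe, a lipid carrier of astrocytes, the Slc1a2 ratio was 0.251 to 0.413, to the gap junction gene Gja1 4.57 to 7.55, to the water channel gene Aqp4 15.5 to 26.8, to the potassium channel gene Kcnj10 17.4 to 30.3, and to the filament gene Gfap 34.6 to 122.

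Slc1a1 did not keep a proportion to the astrocyte transporters. The Slc1a2 to Slc1a1 ratio was 150 ± 98.4 in novice and 248 ± 98.8 in naive libraries, and 234 ± 144 in expert ones, and varied 6.20-fold over the 18 libraries. The log2 ratio of Slc1a1 to Slc1a2 differed by 0.79 in novice over naive (exact permutation p = 0.12), 0.15 in expert over naive (exact p = 0.75) and -0.64 in expert over novice (exact p = 0.24). Set against the mean of the 14 neuron markers, Slc1a1 differed by 0.31 in novice over naive, 0.54 in expert over naive and 0.23 in expert over novice on the log2 scale, with exact permutation p-values of 0.57, 0.29 and 0.68.

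Because the libraries fall into 2 classes of silent-gene signal, relations across libraries were computed within each class, 26 in all, on log2(FPKM + 1). FPKM values of 1 library share its scaling, which moves all genes together. Slc1a2 and Slc1a3 had a Pearson r of 0.96 and a Spearman rho of 0.99 over the 10 libraries of lower signal, with permutation p-values of 1e-05, the smallest that the resamples can give, and 2e-05, both 0.00026 when adjusted. Over the 8 libraries of higher signal r was 0.88 (exact permutation p = 0.0027, adjusted 0.0098) and rho was 0.86 (exact p = 0.011, adjusted 0.040). Without the 2 libraries farthest from the median of Slc1a3, r was 0.90 in the lower and 0.65 in the higher class. Such closeness was not particular to this pair. In the lower and higher class r was 0.98 and 0.89 for Slc1a2 and Glul. Against the astrocyte panel it was 0.89 and 0.97 for Slc1a2 and 0.95 and 0.88 for Slc1a3. For Slc1a1 and the neuron panel r was -0.53 and 0.21. Slc1a2 and Aldh1l1 had an r of 0.71 and a rho of 0.64 in the lower class, with permutation p-values of 0.025 and 0.056 and adjusted values of 0.053 and 0.13. In the higher class r was 0.63 and rho 0.62 (exact p = 0.090 and 0.11, adjusted 0.17 and 0.21), and without the 2 farthest libraries r was 0.44 in the lower and 0.38 in the higher class. Slc1a1 and Slc1a2 had an r of 0.20 and a rho of 0.42 in the lower class (permutation p = 0.58 and 0.23, adjusted 0.60 and 0.30), and of 0.56 and 0.57 in the higher class (exact p = 0.15 and 0.15, adjusted 0.22 and 0.26); without the 2 farthest libraries r was -0.02 and 0.80. Slc1a2 was lower where the silent-gene mean was higher inside the lower class too, with an r of -0.74 and a rho of -0.72 (permutation p = 0.0033 and 0.023, adjusted 0.0098 and 0.076) and an r of -0.70 without expert 3 and expert 1. In the higher class r was -0.78 and rho -0.69 (exact p = 0.028 and 0.069, adjusted 0.055 and 0.14), and r was -0.60 without the 2 farthest libraries.

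The genes most like each transporter were ranked by the smaller of the 2 within-class Pearson correlations, a description over 10 and 8 libraries. For Slc1a2 they were Scd2, a fatty acid desaturase, at 0.96, Rab10, a GTPase of vesicle traffic, at 0.94, Agpat3, an enzyme of phospholipid synthesis, at 0.94, Qk, an RNA-binding protein of glia, at 0.93, and Sparcl1, a secreted astrocyte protein, at 0.92. Glul was at rank 10 with 0.89, Slc1a3 at rank 15 with 0.88 and Aldh1l1 at rank 415 with 0.63. For Slc1a3 they included Scg3, a secretory granule protein, at 0.96, Ank2, a membrane adaptor, at 0.95, and the receptor phosphatase Ptprz1 at 0.93. For Slc1a1 they were Ccar1 at 0.84, Kank4 at 0.80, Twistnb at 0.80, Mapkapk5 at 0.80 and Nxn at 0.78, and Slc1a2 was at rank 2672 with 0.20.

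The other 4 genes of the family stood far below the astrocyte pair in level, and none of the 4 passed the test in any comparison. Slc1a4 (ASCT1), a neutral amino acid exchanger of astrocytes, averaged 27.2 ± 14.6 FPKM in expert and 12.6 ± 2.82 FPKM in novice libraries, a log2 fold change of 0.95 with a standard error of 0.28 (limma adjusted p = 0.45). It was 12.6 ± 2.82 FPKM in novice and 19.4 ± 6.69 FPKM in naive libraries, a log2 fold change of -0.55. Slc1a7, a transporter known mainly from retina, stood at 9.63 to 30.8 FPKM in the libraries of higher silent-gene signal, against 1.61 to 9.22 FPKM in those of lower signal, the reverse of Slc1a2. Its log2 fold change in expert over novice was -0.91 with a standard error of 0.49 (limma adjusted p = 0.45). Slc1a5 (ASCT2), a glutamine exchanger, averaged 2.61 ± 1.46 FPKM in novice and 1.19 ± 1.04 FPKM in naive libraries, and Slc1a6 (EAAT4), the transporter of Purkinje cells, 2.59 ± 1.19 and 1.30 ± 1.11 FPKM, levels near the silent-gene signal of the same libraries.

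Genes of the uptake pathway were described by 4 lists. Beside the counts stand the shares of all tested genes. In novice over naive 43% had a log2 fold change below 0 and 57% one above 0. In expert over naive 56.1% were below 0 and 43.9% above, and in expert over novice 59.6% were below 0 and 40.4% above. Among abundant genes, 1475 of 2183 were below 0 in novice over naive and 1429 of 2183 above 0 in expert over novice. In each list 0 genes passed an adjusted p of 0.05 in any comparison. The astrocyte panel itself had 20 of 20 genes below 0 in novice over naive (median log2 fold change -0.51), 19 of 20 above 0 in expert over naive (median 0.18) and 20 of 20 above 0 in expert over novice (median 0.73). The lists and this panel share genes, among them Atp1b2 and Sox9, so their counts are not independent.

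Enzymes and carriers that glutamate meets after uptake were measured for 18 of 19 genes, Pc not being matched in the table. In novice over naive 17 of 18 were below 0 with a median of -0.21, in expert over naive 11 of 18 were above 0 with a median of 0.05, and in expert over novice 14 of 18 were above 0 with a median of 0.32. Glul averaged 941 ± 467 FPKM in expert and 572 ± 274 FPKM in novice libraries, a log2 fold change of 0.69 with a standard error of 0.47 (limma adjusted p = 0.48). Slc3a2, the heavy chain that partners amino acid exchangers, averaged 51.7 ± 21.8 FPKM in expert and 29.0 ± 5.06 FPKM in novice libraries (0.74, adjusted p = 0.45). The glutamine carrier Slc38a3 averaged 90.4 ± 50.1 FPKM in expert and 46.2 ± 7.18 FPKM in novice libraries (0.83). The mitochondrial glutamate carrier Slc25a18 averaged 52.1 ± 19.2 FPKM in novice and 83.7 ± 35.5 FPKM in naive libraries (-0.62).

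Pumps and channels that maintain the ion gradients of uptake had 13 of 14 genes below 0 in novice over naive (median -0.29), 10 of 14 above 0 in expert over naive (median 0.18) and 10 of 14 above 0 in expert over novice (median 0.49). Atp1b2, a beta subunit of the Na,K-ATPase in glia, averaged 401 ± 228 FPKM in expert and 192 ± 62.5 FPKM in novice libraries, a log2 fold change of 0.96 (limma adjusted p = 0.45). Kcnj10 (Kir4.1) averaged 75.4 ± 40.2 FPKM in expert and 40.1 ± 16.8 FPKM in novice libraries (0.84).

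Proteins reported to bind, move or modify the transporters were measured for 17 of 18 symbols, of which 14 were below 0 in novice over naive (median -0.24), 14 above 0 in expert over naive (median 0.15) and 15 above 0 in expert over novice (median 0.56). The scaffold gene Slc9a3r1 (NHERF1) averaged 36.2 ± 11.2 FPKM in novice and 65.4 ± 30.9 FPKM in naive libraries (log2 fold change -0.77, limma adjusted p = 0.89), and 73.6 ± 37.4 FPKM in expert libraries. Ezr, which links membrane proteins to actin, averaged 89.8 ± 39.0 FPKM in expert and 49.2 ± 17.1 FPKM in novice libraries (0.82). Pick1, a PDZ domain protein, went the other way in novices, with 4.76 ± 2.16 FPKM in novice and 2.75 ± 0.918 FPKM in naive libraries (0.55). Transcription and RNA regulators reported to act on Slc1a2 or Slc1a3 had 15 of 16 genes below 0 in novice over naive (median -0.18), 14 of 16 above 0 in expert over naive (median 0.14) and 14 of 16 above 0 in expert over novice (median 0.32). Sox9, a glial transcription factor, averaged 65.6 ± 26.3 FPKM in expert and 33.7 ± 9.27 FPKM in novice libraries (log2 fold change 0.90, limma adjusted p = 0.45), and Rela, a subunit of NF-kappaB, 10.2 ± 3.15 and 5.42 ± 0.662 FPKM in the same groups (0.76). Pax6 averaged 7.85 ± 3.33 FPKM in novice and 12.2 ± 2.94 FPKM in naive libraries (-0.62, adjusted p = 0.89). Other cells' markers in expert over novice were above 0 for 10 of 10 endothelial genes (median 0.59), 6 of 6 oligodendrocyte precursor genes (0.56), 5 of 6 pericyte and smooth muscle genes (0.26) and 6 of 9 oligodendrocyte genes (0.09). They were below 0 for 6 of 10 microglia genes (median -0.36) and 8 of 14 neuron genes (-0.05). Their part in the pathway values was not tested.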

How the data were processed

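Gene expression was measured by RNA-seq in 18 libraries of M1 astrocytes, 6 per group. Per the labels' protocols, RNA was freed with proteinase K, cleaned on silica and made into SMARTer stranded total RNA libraries. Per the submitters' processing notes, the authors used TopHat and Cufflinks with mouse build mm9, with no version, option or annotation stated. The deposited values were read as FPKM, from those tools and the values, although the table is titled as normalized counts. Of 23951 entries, 27 with names turned into dates were left out.

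Values were taken as log2(FPKM + 1), which understates changes of low genes. Genes that reached 1 FPKM in 6 or more libraries (21745, the 3 transporters among them) were fitted with limma 3.58.1 in R 4.3.3, with a mean-variance trend, 1 mean per group and Benjamini-Hochberg adjustment. The code was tested on simulated data. Ratios were compared by exact permutation tests, adjusted over 21 comparisons, with code checked against scipy 1.17.1 on simulated numbers. Those of Slc1a2 to Glul were added later and adjusted over 24. Silent-gene signal was the mean of 1452 genes after trimming 10% at each end, with classes split at 2 FPKM. Promoters are from RefSeq (GRCm38.p6) and transcripts from GENCODE M21, which is not the authors' build; 3 of 3 genes matched.

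Named genes are the 3 transporters, 8 astrocyte genes used for ratios, up to 4 members with the smallest p per list and comparison (all members of lists of up to 5), and the 5 genes most like each transporter; other genes named in the closing observations were picked after their values were seen. Some genes that this rule names are not reported here. The members and the lists were chosen with earlier results of these data known. Other pseudocounts, filters, scalings, covariates, library subsets and a replicate block were tried.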

Additional observations from a re-analysis of the deposited data

Results flagged for a closer look

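Of 30 groups of 6 libraries examined for a library far from the others, 1 stood out, and chance alone marks about 1 group in 20. The log2 ratio of Slc1a3 to the astrocyte panel was 2.22 in expert 2, against 1.88 to 1.92 in the other 5 expert libraries. The gap was 0.876 of the range of the group, above Dixon's 95% limit for 6 libraries.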

How the results depend on the processing

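No transporter or ratio passed an adjusted p of 0.05 under any of the alternatives, and the cause of sign changes was not tested. For the planned values, the settings that kept every library or a defined subset left 301 on the same side and turned the sign of 25, and leaving out 1 library at a time left 436 and turned 32. With the silent-gene covariate the expert over naive log2 fold change was -0.14 for Slc1a2 and -0.15 for Slc1a3. Without the 2 libraries that went against their labelled sex, expert over novice was -0.012 for Slc1a1 and -0.029 for Slc1a1 to the neuron panel. With a pseudocount of 5, expert over naive was 0.027 for Slc1a3 to Aldh1l1 and 0.0011 for Slc1a3 to the astrocyte panel. Quantile normalization gave 0.014 for Slc1a2 to Slc1a3 in novice over naive, and in expert over naive 0.20 for Slc1a3 to Aldh1l1, 0.12 for Slc1a3 to the panel and -0.016 for Slc1a1 to Slc1a2. For Slc1a2 to Glul, tested after its values were seen, it gave 0.034 in novice over naive and -0.00099 in expert over novice. It moved the median of all genes in expert over novice to 0.04, where the deposited scale gave -0.14.

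In the lower class alone, novice over naive was -0.11 for Slc1a1, -0.53 for Slc1a1 to the neuron panel, 0.26 and 0.27 for Slc1a2 and Slc1a3 to Aldh1l1, and 0.092 and 0.096 for Slc1a2 and Slc1a3 to the panel. Expert over novice was -0.16 and -0.18 to Aldh1l1 and -0.12 and -0.14 to the panel, and expert over naive was 0.091 for Slc1a3 to Aldh1l1 and -0.031 for Slc1a2 to the panel. In the higher class alone, novice over naive was 0.044 for Slc1a2 to Slc1a3, and expert over naive was -0.14 for Slc1a2 to Aldh1l1 and 0.059 for Slc1a3 to the panel.

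Leaving out 1 library at a time, the expert over naive values ranged over -0.022 to 0.40 for Slc1a2, -0.020 to 0.37 for Slc1a3, 0.19 to 0.46 for Slc1a1, -0.032 to 0.053 for Slc1a2 to Slc1a3, -0.070 to 0.12 and -0.11 to 0.085 for Slc1a2 and Slc1a3 to Aldh1l1, -0.060 to 0.069 and -0.060 to 0.024 for both to the panel and -0.088 to 0.42 for Slc1a1 to Slc1a2. Novice over naive ranged over -0.84 to -0.42 for Slc1a2, 0.0036 to 0.27 for Slc1a1 and -0.067 to 0.0077 for Slc1a2 to Slc1a3. Expert over novice ranged over 0.63 to 1.01 for Slc1a2, 0.089 to 0.30 for Slc1a1, 0.097 to 0.15 for Slc1a2 to Glul (adjusted p down to 0.052), -0.0041 to 0.090 for Slc1a2 to Slc1a3 and -0.081 to 0.52 for Slc1a1 to the neuron panel. The adjusted p for Glul does not cover the choice of that gene after its values were seen. Whether replicate numbers pair the libraries was not settled. The deviations of same-numbered libraries correlated above 0.1 in 10 of 18 pairs (-0.36 to 0.46), and differently numbered ones were not set beside them. With the number as a replicate block the adjusted p-values of expert over novice were 0.37 for Slc1a2 and 0.37 for Slc1a3, and no call changed. Depth is unknown, so the precision of single values, above all of Slc1a1, cannot be stated.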

Other observations

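Among the 2182 other genes with a mean of 20 FPKM or more, the one in the tightest proportion to Slc1a2 over all 18 libraries was Scd2, with an SD of the log2 ratio of 0.0614. Glul followed at 0.0932, Luzp2 at 0.103 and Tspan7 at 0.113, and Slc1a3 was at rank 10 with 0.136. Aldh1l1 was at rank 501 with 0.397, and the median over these genes was 0.589. For Slc1a3 the tightest proportion was to Scg3, at 0.0781, with Slc1a2 at rank 19. For Slc1a1 the smallest SD was 0.344, to Sgms1, while Slc1a2 was at rank 1346 of 2183 with 0.878. These genes were picked by that ranking after the values were seen, and the order is a description of these libraries.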
